A study of Mus musculus with 2 samples.

Results

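The miR-181 family in mouse consists of 6 microRNA genes in 3 tandem pairs: Mir181a-1 with Mir181b-1, Mir181a-2 with Mir181b-2, and Mir181c with Mir181d. They were picked by name and not by level, as the rows whose Ensembl identifier belongs to 1 of these genes in GENCODE M21, and all 6 were found among the 2202 miRNA genes of the table. Short RNA was sequenced in 2 libraries from hippocampal tissue of B6CASTF1/J females, a first-generation cross of C57BL/6J and CAST/EiJ, at 25 days of age. The libraries are biological replicates 1 and 2 of 1 group, for which no treatment or engineered allele is named, so they describe levels and their spread and hold no comparison of conditions. The tissue is named as a layer of the hippocampus without saying which layer, and both libraries carry the same donor identifier, so the spread between them may be in part technical.

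A microRNA gene is transcribed as a hairpin, from which 1 mature product can be cut on the 5′ side (5p) and 1 on the 3′ side (3p). The mature product guides Argonaute proteins to messenger RNAs that pair with its seed, bases 2 to 8. The miR-181 family is best known in the thymus, where miR-181a tunes the sensitivity of the T cell receptor, and in the brain, where it has been studied in hippocampal neurons as a regulator of the AMPA receptor subunit GluA2.

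The 5p products are shown because they define the family and because identical copies decide which reads could be counted. Seeds are in capitals, sequences run 5′ to 3′ and are those of RefSeq for build GRCm38.p6.
miR-181a-5p (Mir181a-1 and Mir181a-2): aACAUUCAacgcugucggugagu
miR-181b-5p (Mir181b-1 and Mir181b-2): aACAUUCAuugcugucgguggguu
miR-181c-5p (Mir181c): aACAUUCAaccugucggugagu
miR-181d-5p (Mir181d): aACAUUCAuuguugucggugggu

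All 6 genes thus give a 5p product with the seed ACAUUCA. Of the 1679 mature names in the RefSeq table, 4 carry this seed, and no gene outside the family does. Counting from the 5′ end, miR-181d-5p differs from miR-181b-5p by C12U within the 23 bases that both hold, and miR-181b-5p differs from miR-181a-5p by A9U, C10U and A21G. The edit distance between miR-181c-5p and miR-181a-5p is 1 base. Among the 12 mature products of the 6 hairpins, the 3p products have sequences of their own, and they fall into 4 other seeds.
miR-181a-1-3p: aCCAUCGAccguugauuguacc
miR-181a-2-3p: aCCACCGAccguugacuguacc
miR-181b-1-3p: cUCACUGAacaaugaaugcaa
miR-181b-2-3p: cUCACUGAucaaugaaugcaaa
miR-181c-3p: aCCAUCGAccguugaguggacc
miR-181d-3p: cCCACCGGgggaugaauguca

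Reads that match several places have a row of their own in the deposited tables and are in no gene count. The sequence of miR-181a-5p lies in both Mir181a-1 and Mir181a-2, and that of miR-181b-5p in both Mir181b-1 and Mir181b-2. Only Mir181c and Mir181d have a 5p sequence found in no other miRNA gene of the table. The hairpins of the copies show how far the identity reaches, with the longest identical stretch in capitals.
Mir181a-1: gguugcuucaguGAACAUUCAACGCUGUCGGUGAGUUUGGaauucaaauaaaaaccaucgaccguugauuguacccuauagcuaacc
Mir181a-2: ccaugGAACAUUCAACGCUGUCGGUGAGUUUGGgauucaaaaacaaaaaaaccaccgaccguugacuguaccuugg
Mir181b-1: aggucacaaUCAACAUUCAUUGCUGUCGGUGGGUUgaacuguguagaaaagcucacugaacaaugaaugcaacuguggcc
Mir181b-2: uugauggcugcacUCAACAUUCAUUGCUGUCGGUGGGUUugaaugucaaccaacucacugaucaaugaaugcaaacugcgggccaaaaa

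The a copies share 28 bases, which hold the mature 5p and 4 bases after it. The first difference after it, from Mir181a-1 to Mir181a-2 and counted from the first base of the mature product, is A28G. The b copies share 26 bases, which end with the last base of the mature 5p, and the next base differs, G25U from Mir181b-1 to Mir181b-2. A read made up of the shared stretch alone fits both copies, so the counts of these 4 genes leave such reads out and are no measure of miR-181a or miR-181b as a whole. The longest stretch that Mir181c shares with another member is 17 bases, and for Mir181d it is 13 bases.

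The 3 pairs lie on 3 chromosomes of mm10. Mir181a-1 (ENSMUSG00000065565.1, chromosome 1 from 137966455 to 137966541) and Mir181b-1 (ENSMUSG00000065458.1, 137966639 to 137966718) are 97 bases apart on the plus strand. Both lie in an intron of the noncoding gene Gm4258 and overlap an exon of the lincRNA A430106G13Rik. Mir181a-2 (ENSMUSG00000065423.1, chromosome 2 from 38852735 to 38852810) and Mir181b-2 (ENSMUSG00000065578.1, 38853830 to 38853918) are 1019 bases apart on the plus strand, opposite an intron of Nr6a1, which encodes an orphan nuclear receptor, and Mir181b-2 also lies opposite an exon of the unclassified gene Gm44144. Mir181c (ENSMUSG00000065483.2, chromosome 8 from 84178873 to 84178961) and Mir181d (ENSMUSG00000076338.1, 84178716 to 84178787) are 85 bases apart on the minus strand, in an intron of Nanos3, an RNA-binding protein gene of the germ line. No other miRNA gene of the table overlaps a member. For all 6 the count without strand equalled the count on the main strand, and the other strand had 0 counts in both libraries, which allows up to 3 counts.

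Replicate 1 held 5481053 counts in miRNA genes and replicate 2 held 4266963, from 15474606 and 13677083 reads. Reads that match several places were 41.9% and 46.4% of these reads. Levels are CPM, counts per 1000000 counts in the miRNA gene rows, and 433 genes were detected, which means at least 2 CPM in each library. No marker in the 7 lists of cell type markers was at 0 counts in either library. By the rule of 2 CPM, 6 of the 8 neuronal and 6 of the 8 epithelial and sensory markers were detected, and all markers of the other lists. The list for neurons summed to 42744 CPM in replicate 1 and 48937 CPM in replicate 2, an order that turns with other scalings, since replicate 1 over replicate 2 was 1.12 with TMM and 1.07 with DESeq2 size factors. The 3 Mir124a genes, which all give the classic neuronal miRNA miR-124, had at most 20 counts each. A read that fits more than 1 of them is in no gene count, so these counts are no measure of miR-124.

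Mir181d and Mir181c, the pair with 5p products of their own, had the highest mean levels of the family by gene count. Reads that fit both copies are missing from the a and b genes, so this does not rank the mature products. Mir181d was at 1890 CPM in replicate 1 and 9994 CPM in replicate 2, or 5942 ± 5730 CPM (SD, n = 2). Mir181c was at 2082 CPM in replicate 1 and 6888 CPM in replicate 2, or 4485 ± 3398 CPM (SD, n = 2). By mean CPM they were the genes of rank 34 and 45 among all 2202. Mir181c was the higher of the pair in replicate 1 and Mir181d in replicate 2. The SD of Mir181d was 96.4% of its mean and that of Mir181c 75.8%, so neither mean is precise.

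Mir181b-2 was close behind them although its 5p has a copy. It was at 1825 CPM in replicate 1 and 5657 CPM in replicate 2, or 3741 ± 2709 CPM (SD, n = 2), rank 55 by mean. Mir181a-1 was at 506 CPM in replicate 1 and 2024 CPM in replicate 2, or 1265 ± 1073 CPM (SD, n = 2). The remaining genes, Mir181a-2 and Mir181b-1, were low in these counts, which leave out reads that fit both copies. Mir181a-2 was at 98.5 CPM in replicate 1 and 28.8 CPM in replicate 2, from 540 and 123 counts, or 63.7 ± 49.3 CPM (SD, n = 2). Mir181b-1 was at 19.0 CPM in replicate 1 and 42.4 CPM in replicate 2, from 104 and 181 counts, or 30.7 ± 16.6 CPM (SD, n = 2).

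**Figure D1:**
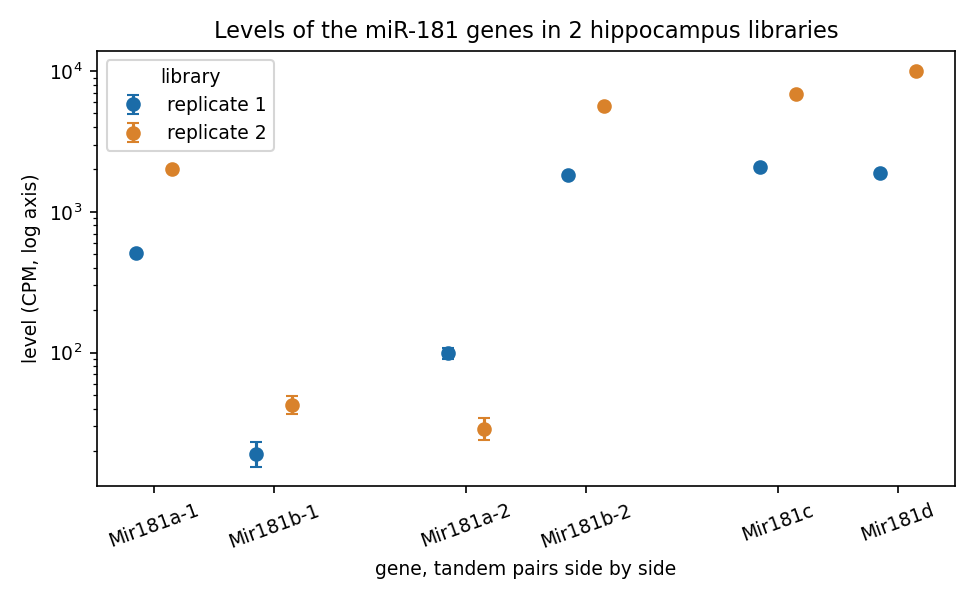
Level of each miR-181 gene in CPM on a log axis, replicate 1 left of replicate 2 at each gene, with tandem pairs side by side. Bars are exact 95% Poisson intervals of the count and cover counting error only. Mir181a-2 is the gene whose replicate 1 point, 98.5 CPM, lies above its replicate 2 point, 28.8 CPM.

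In order of mean CPM the genes ran Mir181d, Mir181c, Mir181b-2, Mir181a-1, Mir181a-2 and Mir181b-1. Of the 5 steps between neighbours in this order, only the step from Mir181a-1 to Mir181a-2 had ranges that did not overlap over the 2 libraries. The differences of 1457 CPM between Mir181d and Mir181c and 744 CPM between Mir181c and Mir181b-2 were below the SD of either gene. Ranges and SDs over the libraries leave out that most members shifted together. Within each library Mir181c was above Mir181b-2 and Mir181b-2 above Mir181a-1, at 2082, 1825 and 506 CPM in replicate 1 and 6888, 5657 and 2024 CPM in replicate 2. The order of Mir181d and Mir181c, and that of Mir181a-2 and Mir181b-1, differed between the libraries. The highest member was 109.7 times the lowest in replicate 1 and 347 times in replicate 2. The counts of the a and b genes leave out reads that fit both copies, so this is an order of gene counts and not of mature products. How evenly the different products were captured was not tested.

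The 6 genes together held 0.642% of the miRNA counts in replicate 1 and 2.46% in replicate 2, with 95% Clopper-Pearson intervals of 0.635 to 0.649 and 2.45 to 2.48, or 1.55% ± 1.29 (SD, n = 2). Mir181c and Mir181d made up 61.9% of the family's counts in replicate 1 (61.4 to 62.4) and 68.5% in replicate 2 (68.3 to 68.8). These are shares of gene counts, from which reads that fit both copies of an a or b gene are missing. Mir181b-2 made up 28.4% and 23.0%, and Mir181a-1 7.88% and 8.22%. Mir181a-2 and Mir181b-1 were at 1.53% and 0.296% in replicate 1 and at 0.117% and 0.172% in replicate 2. The make-up thus moved by less than 1.5-fold for the 4 abundant genes while the family total differed 3.84-fold (95% interval 3.79 to 3.88) between the libraries.

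**Figure D2:**
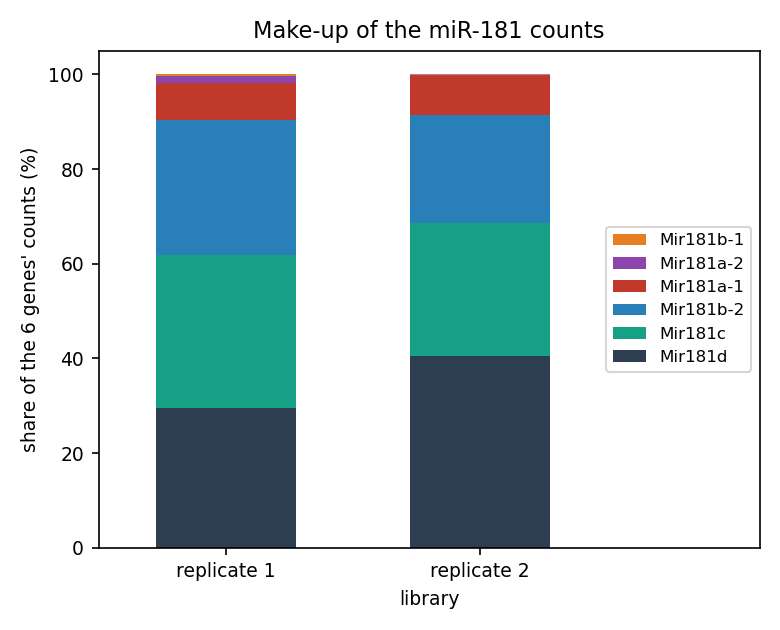
Share of the 6 genes' counts, in percent, that each miR-181 gene held in replicate 1 and replicate 2, stacked to the whole family. Mir181c and Mir181d together fill 61.9% of the replicate 1 bar and 68.5% of the replicate 2 bar.

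Set beside the miR-30 and miR-29 families, which also lie in tandem groups and also hold copies, the genes with a copied product carried more of the miR-181 counts. The 4 miR-181 genes whose 5p has a copy held 38.1% of their family's counts in replicate 1 and 31.5% in replicate 2. The copied pair of the miR-30 family, Mir30c-1 and Mir30c-2, held 1.45% and 3.29%, and that of the miR-29 family, Mir29b-1 and Mir29b-2, held 1.70% and 7.48%. Nearly all of the miR-181 share came from Mir181b-2 and Mir181a-1. Which arm of the hairpin gave these reads cannot be seen, because the counts are per gene.

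Between the libraries, 5 of the 6 genes were lower in replicate 1 by more than 1.5-fold and 1 was higher. Across the 579 genes that reached 10 counts over both libraries, 41.1% were lower in replicate 1 by more than 1.5-fold, 28.2% were higher, and 69.3% were past this fold in either direction, so a difference of this size was common. Among the 114 genes with a mean of at least 1000 CPM, 38.6% were lower. Larger differences were less common. Lower in replicate 1 by more than 4-fold were 13 of these 114 genes, 13 of the 104 genes from 100 to 1000 CPM and 50 of the 361 below 100 CPM. The median log2 ratio of replicate 1 over replicate 2, with 1 CPM added, was -1.68 over the 6 members and -0.24 over the 579 genes. With 1 library on each side these ratios compare the 2 libraries and nothing else, and their intervals cover counting error only.

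Mir181d differed most, with a log2 ratio of -2.40, or 5.29-fold lower in replicate 1 (95% interval 5.18 to 5.40). Mir181a-1 was 4.00-fold lower (3.83 to 4.18), Mir181c 3.31-fold lower (3.24 to 3.38) and Mir181b-2 3.10-fold lower (3.03 to 3.17). Mir181b-1 was 2.24-fold lower (1.75 to 2.87). These 5 genes lie on all 3 chromosomes. Mir181a-2 went the other way, with a log2 ratio of 1.74, or 3.42-fold higher in replicate 1 (2.81 to 4.19).

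**Figure D3:**
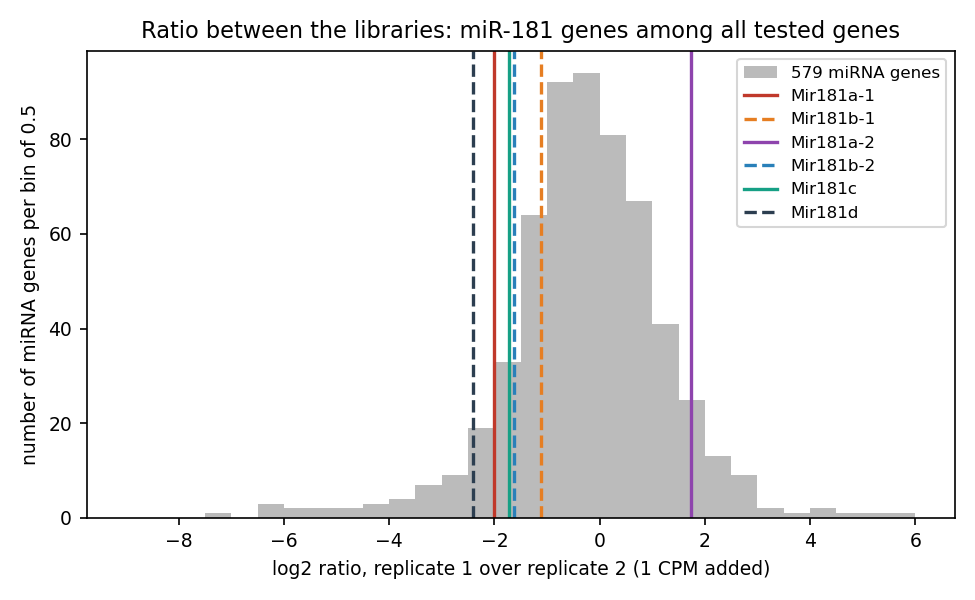
Histogram of the log2 ratio of replicate 1 over replicate 2 for the 579 miRNA genes that reached 10 counts over both libraries (gray, number of genes per bin of 0.5), with a vertical line for each miR-181 gene. The lines of 5 genes lie between -2.40 and -1.12 and that of Mir181a-2 at 1.74.

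The genes of a tandem pair can be read from 1 primary transcript, so their ratios within each library were compared. Mir181c over Mir181d was 1.10 in replicate 1 (95% interval 1.07 to 1.13) and 0.689 in replicate 2 (0.679 to 0.700). Mir181a-1 over Mir181b-1 was 26.7 in replicate 1 (21.9 to 32.7) and 47.7 in replicate 2 (41.2 to 55.6). As point values both ratios thus differed between the libraries by more than 1.5-fold but less than 2-fold. For Mir181a-1 over Mir181b-1 the intervals are wide, so a change past 2-fold is not excluded. Mir181b-2 was 18.5 times Mir181a-2 in replicate 1 and 196 times in replicate 2, so the ratio of this pair changed by far more than 2-fold. The counts of the a and b genes leave out reads that fit both copies. Here and below, their ratios are therefore no measure of the whole products.

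The pair Mir181a-2 and Mir181b-2 was then set against other neighbours, a comparison chosen after its values were seen. There were 124 neighbouring pairs of miRNA genes on 1 strand, at most 10 kb apart and with at least 10 counts each, and 10 of them (8.06%) were past 1.5-fold in opposite directions. Mir181a-2 and Mir181b-2 were 1 of the 10. Their log2 ratios differed by 3.37, the rank 4 difference of the 124. Mir181a-1 and Mir181b-1 differed by 0.88, and Mir181c and Mir181d by 0.68, against a median of 0.88 over all pairs with quartiles of 0.35 and 1.44. Many of these pairs share a gene with the next pair, so they are not independent.

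**Figure D4:**
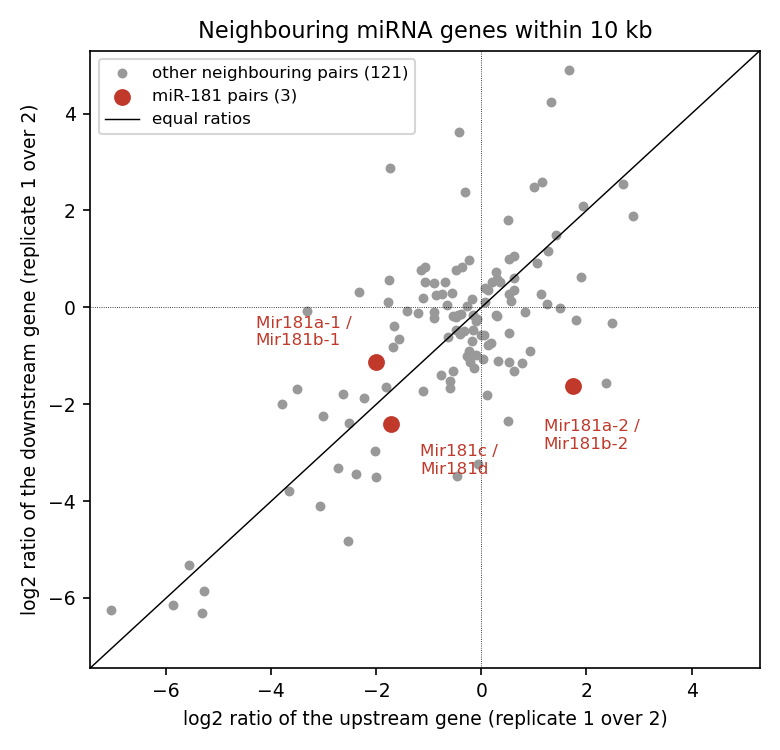
Log2 ratio of replicate 1 over replicate 2 for the upstream gene (horizontal) and the downstream gene (vertical) of 124 neighbouring miRNA pairs within 10 kb, the 3 miR-181 pairs in red. On the diagonal both genes have the same ratio, and Mir181a-2 with Mir181b-2 lies off it at 1.74 and -1.63.

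The nearest other miRNA gene with any count in these libraries, Mir23a, differed in the other direction, by just under 1.5-fold with library totals. It is the first gene of the miR-23a, miR-27a and miR-24-2 cluster and lies 29.6 kb from Mir181c on the opposite strand. It was at 6479 CPM in replicate 1 and 4361 CPM in replicate 2, 1.49-fold higher in replicate 1 (95% interval 1.46 to 1.51). TMM and DESeq2 size factors raise log2 ratios by 0.36 and 0.30, which would put Mir23a past 1.5-fold. The family totals of the comparison families also took other directions. The miR-30 family was at 17741 CPM in replicate 1 and 15624 CPM in replicate 2, but its genes did not all move this way. Mir30d was 1.54-fold and Mir30a 1.26-fold higher in replicate 1. Mir30b, Mir30c-1, Mir30c-2 and Mir30e were 1.51- to 2.90-fold lower, the direction of most miR-181 genes. The miR-29 family was at 8284 CPM in replicate 1 and 398 CPM in replicate 2, a total 20.8-fold higher in replicate 1 (19.8 to 21.9).

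The genes most like each member were sought outside the family only, so a member that lies closer is not listed. They were taken as those with the smallest distance in log2(CPM + 1) over the 2 libraries. This distance measures level and ratio together and, with 2 points, little more. Mir335, in the imprinted Mest gene, was nearest to both Mir181c (distance 0.16) and Mir181b-2 (0.20), at 1903 CPM in replicate 1 and 6479 CPM in replicate 2. Mir128-2, a neuronal miRNA, came next for Mir181c (0.27), and Mir125b-1 for Mir181b-2 (0.47). Mir93 of the Mcm7-hosted cluster (0.25) and Mir130a (0.27) were nearest to Mir181d. For Mir181a-1 they were Mir672 (0.28) and Mir134 (0.43), for Mir181b-1 Mir33 (0.05) and Mir9-1 (0.11), and for Mir181a-2 Mir3057 (0.59) and Snord43 (0.65). Snord43 is counted among the miRNA genes here, although its name is that of a small nucleolar RNA. Mir181a-2 had the most distant neighbours of the 6. Of these genes, Mir128-2, Mir125b-1 and Mir9-1 have a copied product like the miR-181 a and b genes, so their levels are uncertain too.

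Of a list of 16 miRNA genes studied at synapses, where miR-181 is also studied, 15 had at least 10 counts, and 8 of them were lower and 6 higher in replicate 1 by more than 1.5-fold. Their median log2 ratio was -0.77. Over all 579 genes, 41.1% were lower and 28.2% higher, with a median of -0.24. Mir128-1 was at 11606 CPM in replicate 1 and 21819 CPM in replicate 2, and Mir137 at 5321 and 14089 CPM, lower in replicate 1 like most of the miR-181 genes. The activity-induced Mir132 was at 17142 CPM in replicate 1 and 4038 CPM in replicate 2, the direction of Mir181a-2. Mir128-1 shares its product with Mir128-2, so its level is uncertain.

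Of 12 miRNA genes with roles in lymphocytes and other blood cells, 8 were lower and 2 higher in replicate 1 by more than 1.5-fold, with a median log2 ratio of -1.11, against 41.1% lower, 28.2% higher and a median of -0.24 over all 579 genes. The most abundant were Mir17, at 782 CPM in replicate 1 and 9932 CPM in replicate 2, Mir92-1, at 1389 and 2455 CPM, and Mir20a, at 239 and 2718 CPM. These 3 belong to the Mir17-92 cluster, which promotes proliferation and is also expressed outside blood, and Mir92-1 shares a product with Mir92-2. Mir18 and Mir19a of the list lie in the same cluster and were lower too, so much of the count of lower genes comes from 1 locus. Of the other listed genes, Mir142, Mir155 and Mir223 were lower, Mir150 and Mir146b higher, and Mir146 and Mir21a within 1.5-fold. The leukocyte markers alone, 5 genes led by Mir150, summed to 1986 CPM in replicate 1 and 1099 CPM in replicate 2, opposite to the miR-181 total of 6420 CPM and 24633 CPM, although 3 of the 5 were lower in replicate 1 by more than 1.5-fold.

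Markers of other cell types also moved between the libraries, and their part in the miR-181 difference was not tested. All 8 epithelial and sensory markers were lower in replicate 1, and their sum was 101 CPM in replicate 1 and 7663 CPM in replicate 2. The 3 oligodendrocyte markers summed to 6503 CPM in replicate 1 and 939 CPM in replicate 2, the 3 endothelial and mural markers to 21958 and 12895 CPM, and the 4 choroid plexus and ciliated markers to 981 and 2302 CPM. Red blood cell markers were at 88.1 and 65.9 CPM in sum. Not every marker followed the sum of its list. In replicate 1 the oligodendrocyte marker Mir219a-2 was 41.6-fold higher and Mir219a-1 4.42-fold lower. At 1.5-fold, 1 endothelial and mural marker was higher in replicate 1 and 2 were within. Of the choroid plexus and ciliated markers 1 was lower and 3 were within. Of the red blood cell markers 2 were higher and 1 was lower. In bulk tissue, fewer cells of a type and less RNA per cell cannot be told apart.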

How the data were processed

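Short RNA, with a size range below 30 given in the labels, was sequenced from 2 hippocampus samples. The authors deposited for each library a table of raw counts by miRNA gene, with 3 value columns and no header. Per the text deposited with each table, reads were placed on mm10 and counted over GENCODE M21. Aligner, trimming and counting settings: not given in the sources used here. The second value column, which holds nearly all miRNA reads, was read as the main strand; no source used here names the columns. The 4 rows that name no gene stayed out of library sizes; together they held 64.6% of replicate 1 reads and 68.8% of replicate 2 reads.

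All 2202 identifiers matched GENCODE M21. CPM, log2 ratios with 1 CPM added, exact conditional 95% intervals for folds and Clopper-Pearson and Poisson intervals were computed here with scipy 1.17.1 and Python 3.11.15. They cover counting error only. A count of 0 allows 3 counts, or 0.547 CPM in replicate 1 and 0.703 CPM in replicate 2. TMM scaling from edgeR 4.0.16 and size factors from DESeq2 1.42.0 were alternatives. No p-value was computed: there is 1 group, and the members, the comparison families and the lists were chosen with earlier results of these data known. Interval and fold code was tested on simulated counts. Copies were looked for among the hairpins of all miRNA genes in the table, not in the rest of the genome. The CAST/EiJ allele was not analysed. Named genes are the 6 members, the 2 genes outside the family most like each, and the 3 most abundant detected genes of the synaptic and the lymphoid list. Mir23a, the Mir124a genes, the miR-30 genes and other genes of the lists, Mir150 among them, were named after their values were seen.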

Additional observations from a re-analysis of the deposited data

How the results depend on the processing

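All 6 genes stayed past 1.5-fold, 5 lower and 1 higher in replicate 1, with the column without strand, with TMM, with DESeq2 size factors and without the filter on low counts, and all 6 were past 2-fold with library totals. TMM and DESeq2 size factors raise log2 ratios of replicate 1 over replicate 2 by 0.36 and 0.30 before the 1 CPM is added, and by slightly less for low genes after it, so differences are partly a matter of scale. The log2 ratio of the family total, -1.94 with library totals, was -1.58 with TMM, -1.64 with DESeq2 size factors and -1.76 with all reads in the table as denominator. Under TMM 188 of the 579 genes were lower and 208 higher by more than 1.5-fold, against 238 lower and 163 higher with library totals; with DESeq2 size factors 197 were lower and 200 higher. The lymphoid list had 7 lower and 3 higher under both scalings, and the synaptic list 7 lower and 6 higher under TMM. With replicate 2 or replicate 1 left out, the family share ranged from 0.642% to 2.46% and the share of Mir181c plus Mir181d in it from 61.9% to 68.5%. The log2 ratio of Mir181c over Mir181d, -0.20 as a mean, ranged from -0.54 to 0.14 and changed sign without replicate 2. Without Mir181d the family share was 0.958%, and with all reads in the table as denominator 0.498%. Opposite neighbouring pairs made up 6.12% within 2 kb and 6.73% with at least 100 counts, both settings chosen after seeing the data. No paired analysis was possible because there is 1 group with 2 samples. Counting error, relative to the level, is largest for Mir181b-1 and Mir181a-2, with 104 to 540 counts a library. Both also have a copied 5p, so reads that fit both copies are missing from their counts.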
